A study of Mus musculus with 4 samples.

Results

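The ErbB signalling genes of the mouse heart were followed through pressure overload, namely the ligands Nrg1, Hbegf, Areg, Ereg, Btc and Tgfa and the receptors Egfr, Erbb2, Erbb3 and Erbb4. They were found by taking every array probe whose listed RefSeq or Ensembl transcript belongs to one of these genes. All 10 genes had a probe, with 13 probes in all, 6 for the ligands and 7 for the receptors, out of 21658 genes that could be named on the array. RNA came from whole hearts of male C57BL/6J mice after transverse aortic constriction (TAC), which narrows the aorta and loads the left ventricle, or after a sham operation. Hearts were taken at 2 weeks, which the study describes as its hypertrophic stage, and at 8 weeks, its stage of failing hearts. The sample labels give ages of 10 and 16 weeks for these times, which differ from what the age at surgery in the study's methods would give. RNA of 4 to 6 mice was pooled in equal amounts for each condition, and each of the 4 pools (sham at 2 weeks, TAC at 2 weeks, sham at 8 weeks, TAC at 8 weeks) was read on 1 one-colour Agilent array. There was therefore no replicate, the spread between mice could not be measured, and each ratio below compares 2 pools without a test.

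ErbB ligands are made as membrane-anchored precursors that metalloproteases release, and they act on neighbouring cells by bringing ErbB receptor tyrosine kinases together as pairs. Epidermal growth factor (EGF), amphiregulin and transforming growth factor alpha bind the EGF receptor, and neuregulin-1 binds ErbB3 and ErbB4. HB-EGF, betacellulin and epiregulin bind both the EGF receptor and ErbB4. ErbB2 binds no known ligand and serves as the shared partner. In the heart, neuregulin-1 from endothelial cells acts on ErbB4 and ErbB2 of cardiomyocytes, an axis that is needed to form ventricular trabeculae and to keep adult heart muscle healthy under stress.

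Signals are given as multiples of the array's own 75th percentile over all probes, which removes differences in overall brightness. That percentile was 206.5 and 206.0 intensity units on the sham and TAC arrays at 2 weeks and 221.2 and 248.5 at 8 weeks. A probe is called measured where the scanner software flagged its signal as well above background, which held for 67.3% to 70.2% of the named genes. Such levels can be compared between arrays for 1 probe but not between probes. Ratios between the spots of probes printed 10 times on each array had a pooled SD of 0.142 on the log2 scale, which covers spot-to-spot error and nothing of the differences between mice. As a check of the labels, the load-responsive genes Nppa, Nppb, Myh7, Acta1 and Ankrd1 were higher on the TAC array at both times, and their log2 ratios of TAC to sham lay between 1.03 and 3.09 at 2 weeks and between 1.94 and 3.69 at 8 weeks.

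Hbegf had the highest TAC-to-sham ratio among the members measured on all 4 arrays, Ereg was detected only on the TAC array at 8 weeks, and Nrg1 was lower than sham at 2 weeks and higher than sham at 8 weeks. The receptors differed less, by at most 1.41-fold between TAC and sham in the probe that stands for each gene. Of the 6 ligands, 2 were well above background on all 4 arrays (Nrg1, Hbegf), 1 on 1 array (Ereg) and 3 on none (Areg, Btc, Tgfa). Of the 4 receptors, 3 were measured on all 4 arrays (Egfr, Erbb2, Erbb4) and 1 on none (Erbb3).

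**Figure D1:**
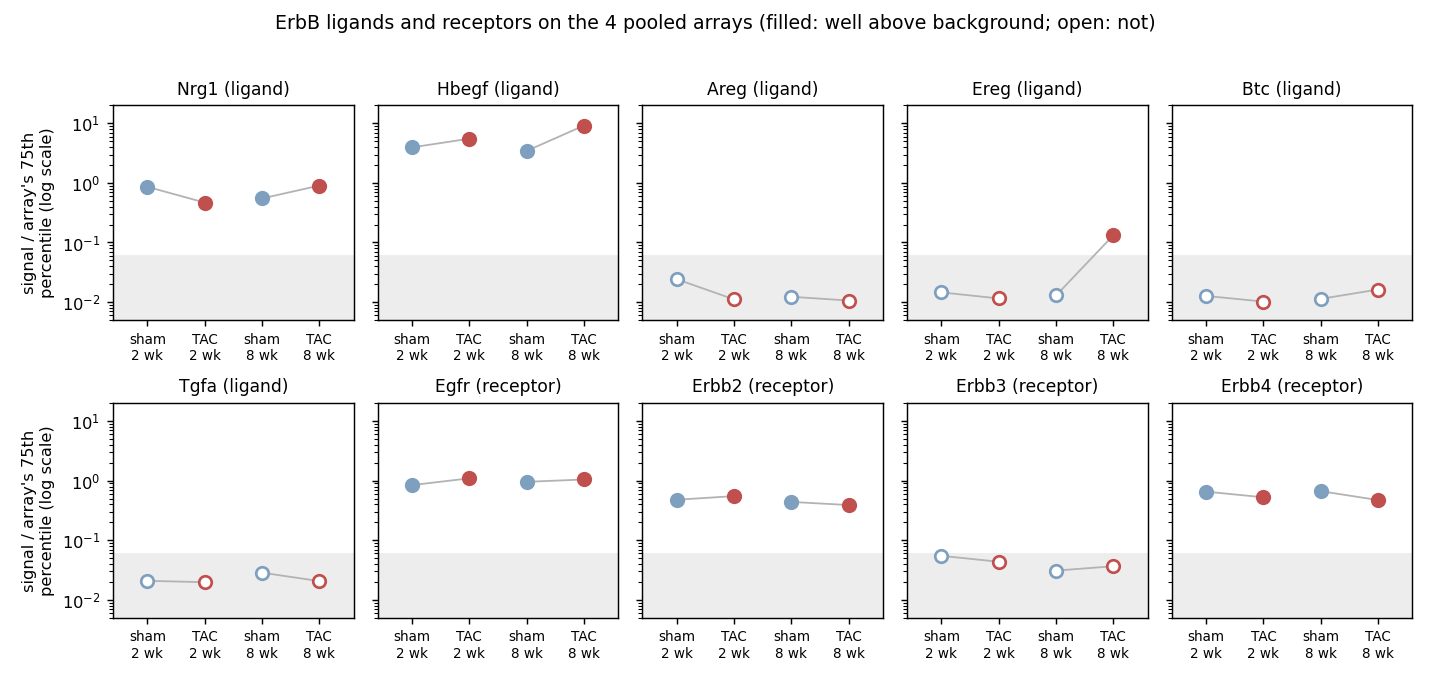
Signal of each of the 10 genes on the 4 arrays, as a multiple of the array's 75th percentile on a log axis, 1 point per pooled array, with TAC in red and sham in blue. Filled points are well above background, open points are not, and the grey band ends at the highest of the 4 arrays' lowest signals that count as well above background (0.06). Hbegf is highest on the TAC array at 8 weeks (9.20), and Ereg is filled only there.

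Counted by fold at 2 weeks, 0 of 10 members were called more than 2-fold up and 0 of 10 more than 2-fold down. Of all 21658 named genes 1.7% and 0.84% were called. At 8 weeks 2 of 10 members (Hbegf and Ereg) were called up, where 2.32% of named genes were. For down calls the count was 0 of 10, where 1.46% of named genes were called. For an up call the TAC (or later) signal had to be well above background and the ratio had to pass the fold, and a down call mirrored this. The lower signal did not have to be well above background, and for Ereg it was not. With a 1.5-fold limit, 0 of 10 members were up (background 4.79%) and 1 of 10, Nrg1, was down (2.36%) at 2 weeks. At 8 weeks the same limit called 3 of 10 up, which were Nrg1, Hbegf and Ereg (5.15%), and 0 of 10 down (4%). Between the sham arrays 0 of 10 members were called over 2-fold in either direction, where 1.86% of named genes were. Between the TAC arrays 1 of 10 was called, Ereg, where 2.38% of named genes were. The comparisons share arrays and are not independent of each other.

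Nrg1 encodes neuregulin-1, the ligand of ErbB3 and ErbB4. Its single probe, listed for NM_178591 and printed in 1 spot, read 0.860 on the sham array and 0.468 on the TAC array at 2 weeks, and 0.548 on the sham array and 0.903 on the TAC array at 8 weeks. The TAC array was the lowest of all 4 at 2 weeks and the highest at 8 weeks, and the sham arrays lay between them. The 2-week ratio was -0.88 on the log2 scale (1.84-fold lower after TAC), and 0.804% of the 14419 genes measured on both arrays had a ratio as low or lower. By 8 weeks the ratio was 0.72 (1.65-fold higher after TAC), and 3.66% of 14581 genes had a ratio as high or higher. The scanner software's own error of each of these log2 ratios was 0.21. The 6 spots printed nearest to that of Nrg1 had a median log2 ratio of -0.30 at 2 weeks, between -2.66 and 0.45, and of -0.23 at 8 weeks, between -0.43 and 0.75.

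The sham arrays themselves differed for Nrg1. Sham at 8 weeks was lower than sham at 2 weeks by a log2 ratio of -0.65. Of 14355 genes 0.92% had a ratio as low or lower, and 2.16% had a ratio as large in size. Setting the arrays in order of level, the TAC array at 8 weeks and the sham array at 2 weeks lay 0.07 apart on the log2 scale, which is under the SD between spots, while the other neighbours lay 0.23 and 0.65 apart. From TAC at 2 weeks to TAC at 8 weeks the signal was 1.93-fold higher (log2 0.95). The TAC-to-sham ratio at 8 weeks minus that at 2 weeks came to 1.60, and 0.365% of the 14247 genes measured on all 4 arrays had a difference as large in size. With 1 pool per condition, the part of this that belongs to the sham pools and the part that belongs to TAC cannot be told apart.

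Endothelial cells are a main source of neuregulin-1 in the heart. Their 7 listed markers were measured on all 4 arrays, and their summed signal was 72.8 and 71.1 at 2 weeks (sham, then TAC) and 65.1 and 63.6 at 8 weeks. Such a sum is carried by its brightest probes, here Kdr, which read 45.8 on the sham array at 2 weeks. Of the 7 markers, 5 were higher on the TAC array at 2 weeks and 4 at 8 weeks. The median log2 ratio of TAC to sham over these markers was 0.19 at 2 weeks, between -0.38 for Vwf and 0.33 for Tie1, and 0.01 at 8 weeks, between -0.21 for Tek and 0.11 for Tie1. The part of these cells in the Nrg1 signal was not tested. In RNA of whole hearts, fewer cells of a type and less RNA per cell cannot be told apart.

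Hbegf encodes heparin-binding EGF-like growth factor, whose membrane precursor is cleaved to activate the EGF receptor and ErbB4. The Hbegf probe (NM_010415, 1 spot) read 3.96 on the sham array and 5.53 on the TAC array at 2 weeks, and 3.45 and 9.20 at 8 weeks. Both TAC arrays were above both sham arrays, and every neighbouring pair in this order was separated by more than the SD between spots, the closest being the sham arrays at 0.20 on the log2 scale. TAC exceeded sham 1.40-fold at 2 weeks (log2 0.48) and 2.67-fold at 8 weeks (log2 1.42), each with a software error of 0.20. At 2 weeks 6.42% of the genes measured on both arrays had a ratio as high or higher, and at 8 weeks 0.734% did. The TAC array at 8 weeks was 1.66-fold above the TAC array at 2 weeks. The 6 spots printed nearest to that of Hbegf had log2 ratios between -0.37 and 0.32 at 2 weeks and between -0.21 and -0.05 at 8 weeks.

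**Figure D2:**
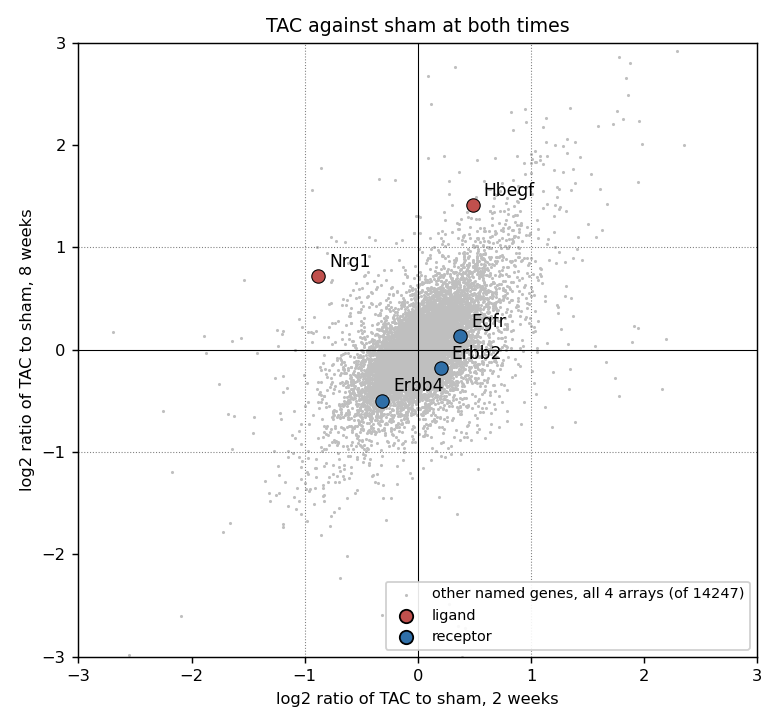
Log2 ratio of TAC to sham at 2 weeks (horizontal axis) against that at 8 weeks (vertical axis) for the 14247 named genes well above background on all 4 arrays, 1 point per gene, with ligands in red and receptors in blue; dotted lines mark 2-fold and 17 genes lie beyond the axes. Hbegf lies at 0.48 and 1.42, Nrg1 lies in the upper left at -0.88 and 0.72, and the 3 measured receptors lie within 0.50 of 0 on both axes.

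Marker lists of other cell types, set beside these ligands, went in both directions. The 7 fibroblast markers, all measured on all 4 arrays, had a summed signal of 198.8 and 270.8 at 2 weeks (sham, then TAC) and 222.5 and 320.0 at 8 weeks. Dcn alone read 142.5 on the sham array at 2 weeks, so the sum mostly follows that probe. The median log2 ratio of TAC to sham over the 7 was 0.90 at 2 weeks and 0.75 at 8 weeks. Single ratios ran from 0.07 for Tcf21 to 2.29 for Postn at 2 weeks. At 8 weeks they ran from -0.55 to 2.92 for the same genes. For the 7 macrophage markers, all measured, the sums were 39.0 and 48.5 at 2 weeks and 40.7 and 52.5 at 8 weeks. Their median log2 ratios were 0.44 and 0.40, and all 7 were above 0 at both times. Of the 8 mesothelial and epithelial markers 3 were measured on all 4 arrays, and Krt8, Epcam, Cdh1 and Upk3b on none. That list's sum was 1.90 and 2.79 at 2 weeks and 2.53 and 4.09 at 8 weeks, with Krt18 at 0.239, 0.462, 0.207 and 1.06, Wt1 at 1.41, 1.86, 2.10 and 2.80, and Msln at 0.160, 0.348, 0.152 and 0.103 on the 4 arrays in the same order. Msln was thus lower on the TAC array at 8 weeks, unlike Krt18 and Wt1. The 6 mural markers, all measured, summed to 63.2, 72.6, 64.3 and 62.1, and the 6 lymphocyte markers, 4 of them measured on all 4 arrays and Cd3g on none, to 11.9, 11.7, 10.9 and 9.73. The median log2 ratios at 2 and 8 weeks were 0.32 and 0.15 for the mural markers. They were -0.04 and -0.16 for the lymphocyte markers measured on both arrays. The 4 platelet and mast cell markers, 3 of them measured on all 4 arrays, summed to 14.1, 16.0, 15.9 and 17.6. Over those measured on both arrays their median log2 ratio was 0.21 at 2 weeks and -0.18 at 8 weeks, unlike the sum. Of the 5 adipocyte markers Cidea alone was measured, and Adipoq, Plin1, Cidec and Ucp1 were not on any array, with a sum of 41.0, 39.9, 35.6 and 47.7. The part of these cells in the Hbegf and Ereg signals was not tested.

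Ereg encodes epiregulin, a ligand of the EGF receptor and ErbB4 that is scarce in most resting tissues. The Ereg probe (NM_007950, 1 spot) read 0.0145 and 0.0115 at 2 weeks (sham, then TAC), 0.0129 on the sham array at 8 weeks and 0.132 on the TAC array at 8 weeks. Only the last of these was well above background. The TAC signal at 8 weeks was 2.45-fold the lowest signal that counts as well above background on the sham array at 8 weeks. It was 2.73-fold the lowest such signal of the TAC array at 2 weeks. Neither is a lower limit of the ratio, since a probe can read above that lowest signal and still not be flagged. The Dusp5 probe, for example, read 0.0669 on the sham array at 8 weeks and was not well above background. The bright Ereg reading was a processed intensity of 32.9 with a software error of 13.1%, and it rests on 1 spot of 1 array. Among the 6 nearest spots the log2 ratios at 8 weeks ran from -0.41 to 3.97 with a median of -0.10.

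Areg (amphiregulin), Btc (betacellulin) and Tgfa (transforming growth factor alpha) were not well above background on any array. Areg (NM_009704) read 0.0242, 0.0111, 0.0122 and 0.0106 in the order sham and TAC at 2 weeks, then sham and TAC at 8 weeks. Btc (NM_007568) read between 0.0102 and 0.0162. Tgfa (NM_031199) was printed in 10 spots and read between 0.0198 and 0.0286, with an SD between spots of 0.64 to 0.78 on the log2 scale. The dimmest signals that counted as well above background on the 4 arrays were 0.0469 to 0.0600, so no fold is given for these 3 ligands, and their transcripts were not detectable at the sensitivity of these probes. Ereg, Areg and Btc lie next to each other on chromosome 5 together with Epgn (epigen, another EGF receptor ligand), in the order Epgn, Ereg, Areg, Btc among protein-coding genes of the RefSeq annotation of GRCm38. Epgn was measured on all 4 arrays and read 0.102, 0.113, 0.132 and 0.104 in the array order above. Of these 4 adjacent ligand genes Ereg was called at 8 weeks and Epgn at neither time. Areg and Btc were too dim for the rule to call them.

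The receptors were measured more evenly. The 250 bases upstream of the start sites of Egfr, Erbb2 and Erbb4 are shown because these are the measured receptors, and their promoters are in the RefSeq table of GRCm38.p6, which holds 6 of the 10 genes. The table also holds Areg, Btc and Tgfa. Sequences run 5′ to 3′ on the gene's strand, with GC boxes (GGGCGG or its reverse complement CCGCCC, a motif bound by Sp1) in capitals.
Egfr: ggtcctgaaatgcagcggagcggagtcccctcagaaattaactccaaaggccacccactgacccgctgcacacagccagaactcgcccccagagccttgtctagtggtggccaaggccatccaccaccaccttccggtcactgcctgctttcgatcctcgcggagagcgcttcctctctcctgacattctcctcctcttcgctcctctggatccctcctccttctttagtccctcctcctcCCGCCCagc
Erbb2: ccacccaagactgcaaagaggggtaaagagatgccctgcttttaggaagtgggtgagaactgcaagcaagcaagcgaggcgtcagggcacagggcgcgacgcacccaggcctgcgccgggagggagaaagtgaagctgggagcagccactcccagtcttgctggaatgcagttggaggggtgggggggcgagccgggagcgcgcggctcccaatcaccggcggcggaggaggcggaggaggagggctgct
Erbb4: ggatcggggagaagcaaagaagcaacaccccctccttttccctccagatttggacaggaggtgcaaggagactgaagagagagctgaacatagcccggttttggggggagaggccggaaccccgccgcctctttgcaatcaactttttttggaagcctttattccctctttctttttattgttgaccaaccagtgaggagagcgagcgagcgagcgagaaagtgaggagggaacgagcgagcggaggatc
The Egfr stretch is chr11:16751953-16752202 on the plus strand, has a GC content of 60.8% and holds 1 GC box near its 3′ end. The Erbb2 stretch is chr11:98412234-98412483 on the plus strand, and the Erbb4 stretch is chr1:69108060-69108309 on the minus strand, with GC contents of 66% and 54% and 0 GC boxes each. Over all 32851 promoters of the table the median GC content was 52.4%, and 32.7% hold at least 1 GC box in these 250 bases.

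Egfr encodes the EGF receptor itself. Its main probe (NM_207655, 10 spots) read 0.845 and 1.10 at 2 weeks (sham, then TAC) and 0.959 and 1.05 at 8 weeks. The TAC array was the higher of the pair at both times, by 1.30-fold at 2 weeks (log2 0.38) and 1.10-fold at 8 weeks (log2 0.13). The SD of these log2 ratios between spots was 0.07 over 8 spot pairs and 0.09 over 10. The TAC arrays lay 0.06 apart on the log2 scale and the sham arrays 0.18 apart, so at 8 weeks the difference from sham was no larger than that between the shams. Of the genes measured on both arrays 16.7% had a ratio as large in size at 2 weeks, and 59.8% at 8 weeks. For a ratio as high or higher the shares were 10.2% and 28.9%.

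The other Egfr probes are listed for NM_007912, a short transcript. In the annotation NM_207655 has 28 exons and a coding length of 3633 nt for 1210 codons, whereas NM_007912 has 16 exons, of which 15 are identical to those of NM_207655, and a coding length of 1968 nt for 655 codons. The short form lacks the part that encodes the membrane span and the kinase. Where the 2 probes listed for it lie within the transcript is not known, so each may read exons shared with NM_207655. These probes read 0.410, 0.398, 0.382 and 0.348, and 0.115, 0.162, 0.116 and 0.135, in the order sham and TAC at 2 weeks, then sham and TAC at 8 weeks. The first had log2 ratios of TAC to sham of -0.04 and -0.13 at 2 and 8 weeks, against 0.50 and 0.22 for the second. The 2 probes listed for 1 transcript thus had opposite signs at both times, and neither changed by more than 1.41-fold. The scanner software's error was 0.21 for the ratios of the first and 0.29 to 0.30 for those of the second.

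Erbb2 encodes the co-receptor without a ligand, which is also the target of trastuzumab. Its probe (NM_001003817, 10 spots) read 0.480 on the sham array and 0.552 on the TAC array at 2 weeks, and 0.441 and 0.391 at 8 weeks. TAC was higher than sham at 2 weeks (log2 0.20, 1.15-fold) and lower at 8 weeks (log2 -0.17, 1.13-fold lower), with an SD between spots of 0.22 and 0.15 for these ratios. The change between TAC arrays was the largest for this gene, at 1.41-fold lower at 8 weeks than at 2 weeks (log2 -0.50, SD between spots 0.13 over 8 spot pairs). In that comparison 4.37% of the 14756 genes measured on both arrays had a ratio as low or lower.

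Erbb4 encodes the neuregulin receptor of cardiomyocytes, and its 2 probes gave different answers. The probe listed for ENSMUST00000121473 read 0.656 and 0.528 at 2 weeks (sham, then TAC) and 0.668 and 0.474 at 8 weeks. Both TAC arrays were below both sham arrays, by 1.24-fold at 2 weeks (log2 -0.31) and 1.41-fold at 8 weeks (log2 -0.50), each with a software error of 0.21. The sham arrays differed by 0.03 on the log2 scale, under the SD between spots, and the TAC arrays by 0.16. At 2 weeks 9.25% of genes measured on both arrays had a ratio as low or lower, and at 8 weeks 5.88% did. The other probe, listed for NM_010154, was not well above background on any array and read 0.0102 to 0.0129. In the present annotation both names stand for a transcript of 27 exons and 12037 nt, with all 27 exons identical. The position of either probe within it is not given in the files, and the cause of the difference was not tested.

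Cardiomyocyte markers were mostly lower on the TAC arrays. All 7 were measured on all 4 arrays, with a median log2 ratio of -0.19 at both times, between -0.42 for Pln and 0.06 for Myl2 at 2 weeks and between -0.63 for Ryr2 and -0.12 for Actc1 at 8 weeks. Their summed signal was 7092 and 6638 at 2 weeks (sham, then TAC) and 6771 and 5968 at 8 weeks. The part of cardiomyocyte content in the Erbb4 ratios was not tested.

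Erbb3, the neuregulin receptor of Schwann cells with a weak kinase of its own, was not well above background on any array. The Erbb3 probe (NM_010153, 1 spot) read 0.0548, 0.0436, 0.0310 and 0.0366 in the order sham and TAC at 2 weeks, then sham and TAC at 8 weeks, and no fold is given.

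**Figure D3:**
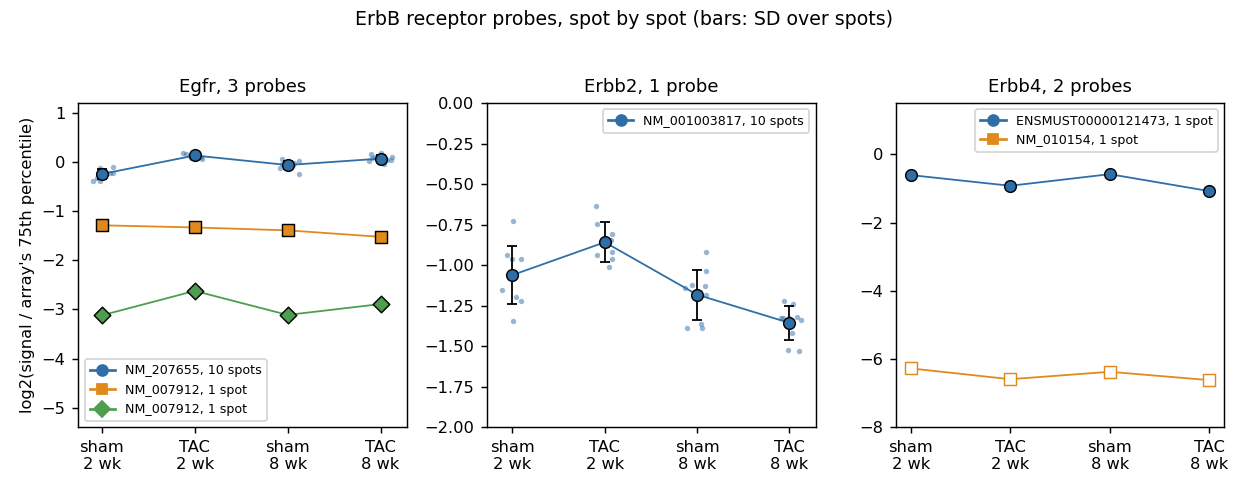
Log2 of the signal relative to the array's 75th percentile for every probe of Egfr, Erbb2 and Erbb4 on the 4 arrays, with a separate scale in each panel. Small dots are single spots, large symbols the probe's mean (open where not well above background), and bars the SD over spots for the probes printed 10 times; the Erbb4 probes lie far apart, at 0.474 to 0.668 and 0.0102 to 0.0129 of the percentile.

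Of the 83 other genes of the pathway that were listed, all 83 had a probe and 78 were well above background on at least 1 array. At 2 weeks 0 of them were called more than 2-fold up and 0 more than 2-fold down, and with a 1.5-fold limit 4 were called up and 1 down. At 8 weeks 4 were called more than 2-fold up and 2 down. The down calls include Spry2, which was not well above background on the TAC array. With the 1.5-fold limit 8 were called up and 3 down. All these counts stand against the shares of all named genes given above. Over all genes measured on both arrays the median log2 ratio was -0.01 at both times and the SD was 0.33 and 0.40.

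Among the 5 other ligands, Egf, Epgn, Nrg2 and Nrg4 were measured on all 4 arrays and Nrg3 on none. None passed 1.5-fold at either time. The median log2 ratio of the 4 was -0.14 at 2 weeks, between -0.38 for Nrg2 and 0.14 for Epgn, and 0.00 at 8 weeks, between -0.36 for Nrg4 and 0.41 for Egf. Nrg2, the neuregulin nearest to Nrg1, has 2 probes, and the brighter is given. It read 0.137 and 0.105 at 2 weeks and 0.137 and 0.174 at 8 weeks, lower than sham at 2 weeks and higher at 8 weeks. Its log2 ratios were -0.38 and 0.35. These signals lie below 0.25 of the percentile, where the SD of a log2 ratio between spots was 0.26 to 0.28. Nrg4, another neuregulin, was lower on the TAC array at both times, with log2 ratios of -0.34 and -0.36.

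The 12 shedding genes, which cleave ligand precursors or regulate that cleavage, were all measured. Their median log2 ratio was 0.22 at 2 weeks, with 9 of 12 above 0, and 0.28 at 8 weeks, with 11 of 12 above 0, against 48.4% and 48.1% of all measured genes. At 2 weeks the ratios ran from -0.15 for Timp3, an inhibitor of these proteases, to 0.71 for Adam19, a protease that can cleave neuregulins. At 8 weeks they ran from -0.34 for Adam12, which can cleave HB-EGF, to 0.51 for Rhbdf1, which guides Adam17 to the cell surface. Timp3 was then at 0.26, so the inhibitor is among the 11 above 0. Adam19 was at 0.12 at 8 weeks, and its sham arrays differed by 0.62 on the log2 scale. Adam17, the main sheddase of EGF receptor ligands, read 0.181 and 0.252 at 2 weeks and 0.204 and 0.250 at 8 weeks, higher on the TAC array both times but by less than 1.5-fold. Its log2 ratios of 0.48 and 0.29 also come from signals near or below 0.25 of the percentile.

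Among the 22 receptor regulators, 2 were called over 2-fold, both at 8 weeks, 1 up and 1 down. Of all named genes 2.32% were called up and 1.46% down at that time. Socs3, a feedback inhibitor of cytokine and receptor signalling, read 1.01 and 1.18 at 2 weeks and 0.921 and 2.33 at 8 weeks, a 2.53-fold difference at 8 weeks (log2 1.34). Spry2, a feedback inhibitor of receptor kinase signalling, read 0.0688, 0.0919, 0.110 and 0.0341 in the array order above, and was well above background on 2 arrays. At 8 weeks its sham signal was 2.34-fold the lowest signal that counts as well above background on the TAC array. This is not a lower limit of the ratio. Spry1, a relative of Spry2, read 4.89 and 7.03 at 2 weeks and 4.74 and 8.25 at 8 weeks (log2 0.52 and 0.80), the opposite direction at 8 weeks. The lowest ratio of the list at 2 weeks was that of Sh3kbp1, an adaptor in receptor uptake, at -0.69. The list's median was 0.16 at both times, over 20 and 21 measured genes.

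The 28 transducers, from Grb2 to the STATs, had medians of 0.06 and -0.03 over 26 measured genes. Gab1, a docking protein of receptor kinases that neuregulin-1 engages in cardiomyocytes, passed 2-fold at 8 weeks, where 1.46% of named genes were called down. It was not called with scaling by the array median or without scaling. It read 0.431 and 0.297 at 2 weeks and 0.679 and 0.330 at 8 weeks, lower on the TAC array both times (log2 -0.54 and -1.04). Its sham arrays differed by 0.66 on the log2 scale. The highest ratios were those of Stat3, at 0.26 and 0.57.

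Among the 16 early targets, genes that receptor kinase signalling switches on, 3 passed 2-fold at 8 weeks, all up. Of all named genes 2.32% were called up at that time. Fos read 0.367 and 0.477 at 2 weeks and 0.265 and 0.643 at 8 weeks (log2 1.28 at 8 weeks). Etv4, an ETS factor downstream of ERK, read 0.644 and 1.06 at 2 weeks and 0.596 and 1.25 at 8 weeks (log2 0.71 and 1.07). Myc read 0.0765, 0.142, 0.0934 and 0.192 and was measured on 3 arrays, with a log2 ratio of 1.04 at 8 weeks. Its signals lie below 0.25 of the percentile, where the SD of a log2 ratio between spots was 0.26 to 0.28. The highest ratio at 2 weeks among genes measured on both arrays was that of Dusp4, an ERK phosphatase, at 0.84, and the lowest was that of Phlda1 at -0.48. At 8 weeks the lowest was Spred2, an inhibitor of the Ras pathway, at -0.16. The list's median was 0.25 at 2 weeks and 0.32 at 8 weeks.

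**Figure D4:**
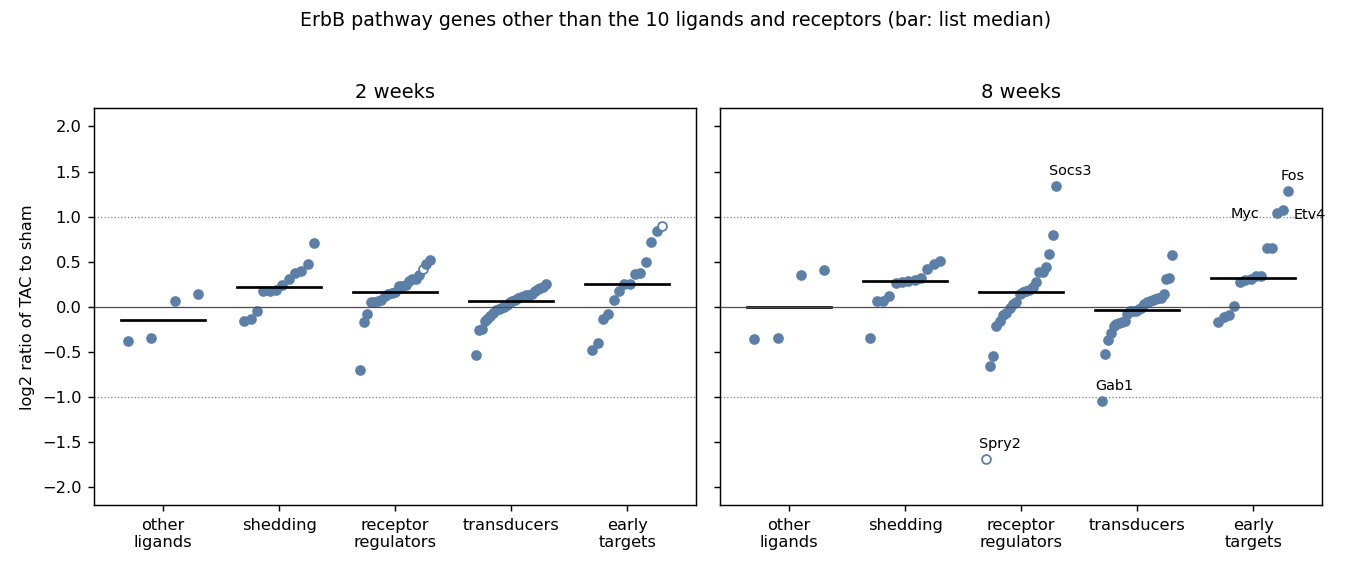
Log2 ratio of TAC to sham at 2 weeks (left) and 8 weeks (right) for the 5 lists of other pathway genes, 1 point per gene sorted by value, with a bar at the median of the genes measured on both arrays. Open points were well above background on 1 of the 2 arrays only, dotted lines mark 2-fold, and the 6 named genes at 8 weeks are those called.

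The genes whose pattern over the 4 arrays lay nearest to that of a member were sought among 14246 genes, by the distance between log2 values centred on each gene's own mean. Nearest to Nrg1 were Serinc2 (distance 0.14, log2 ratios of -0.77 and 0.66 at 2 and 8 weeks) and 4930404N11Rik (distance 0.25, log2 ratios of -0.60 and 0.53). Within a distance of 0.5 Nrg1 had 64 genes and Hbegf had 256. Nearest to Hbegf were Pla2g4a, a phospholipase that frees arachidonic acid (distance 0.06, log2 ratios of 0.52 and 1.49), and Hspa1l, a chaperone gene (distance 0.10, log2 ratios of 0.51 and 1.27). With 4 values per gene this is a description of these arrays.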

How the data were processed

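Total RNA pooled from 4 to 6 mice per condition was labelled with Cy3 and hybridized to 1 SurePrint G3 Mouse array each. The authors deposited scanner output of Agilent Feature Extraction (10.7.3.1 in the file headers, 9.1 in the submitters' processing notes), whose processed signal is an intensity per spot after background subtraction and detrending, not normalized between arrays. The deposited series table equals this intensity multiplied by 1 factor for each array. GeneSpring GX11 is the analysis software named in the methods.

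Outlier spots were left out, spots of a probe were averaged as log2, and each array was scaled to the 75th percentile of its 55681 probes other than controls. Probes were named through RefSeq and GENCODE transcript identifiers (29358 with 1 symbol), and the brightest probe stood for a gene. A call needed a signal well above background on the brighter array and a ratio over 2-fold. With 1 array per condition no p-value was computed, and the number of arrays limits the precision. The named genes are all members, the pathway genes over 2-fold, the largest rise and fall of each pathway list among probes well above background on all 4 arrays, and for likeness the 2 nearest genes; Nrg2, Adam17, Spry1 and some markers were added after their values were seen. Members and lists were chosen with earlier results of these data known. The calling step was tested on simulated data made from probes well above background on all 4 arrays. That test therefore does not cover dim signals, and it held no differences between pools of mice. The result of 1 marker list is not reported here. Alternatives changed the scaling, background correction, source table, outliers, probe choice, fold limit and filter on dim probes. Python 3.11.15, pandas 2.3.3, numpy 2.4.6, R 4.3.3 and limma 3.58.1 were used.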

Additional observations from a re-analysis of the deposited data

Results flagged for a closer look

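Nrg1 and Erbb2 had TAC-to-sham ratios of opposite sign at the 2 times. For Nrg1 the log2 ratio of TAC to sham was -0.88 at 2 weeks and 0.72 at 8 weeks, a difference of 1.60 that 0.365% of the genes measured on all 4 arrays matched or passed in size. For Erbb2 it was 0.20 and then -0.17, a difference of -0.38 that 15.4% of these genes matched or passed. Both Erbb2 ratios lay within the scanner software's error of 0.21, and without scaling the 8-week ratio was -0.0064. These differences were not tested, since each condition had 1 pooled array. The Nrg1 sham arrays differed by -0.65, and those of Erbb2 by -0.12.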

How the results depend on the processing

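No paired analysis was possible because each condition had 1 array, and for the same reason no array could be left out. Of the members, 2 were called at 8 weeks and 0 at 2 weeks. The 8-week count fell to 1 (Hbegf) with normexp and an offset of 50, where the log2 ratio of Ereg was 0.48, and with both arrays required to be well above background; it was 1 (Ereg) over 3-fold. At 2 weeks the count was 1 over 1.5-fold (Nrg1), and 1 (Areg, dim on both arrays) with either the looser filter of positive and significant signal or no filter. Between shams it was 1 over 1.5-fold (Nrg1). Between TAC arrays it was 1, and became 2 with the array median, 3 with no scaling, 3 over 1.5-fold, 0 with normexp and 0 with both arrays well above background. Pathway genes called at 8 weeks, 6 by the rule used, were 11 over 1.5-fold, 1 over 3-fold (Spry2) and 1 with normexp (Socs3). They were 5 with the array median and 5 with no scaling, where Gab1 was not called. With both arrays required to be well above background they were 5, without Spry2. At 2 weeks the rule used called 0 pathway genes. The count there was 5 over 1.5-fold, 1 (Adam12) with the mean over all probes of a gene, and 1 (Fosl1) with the looser filter or none. Apart from 1.5-fold between TAC and sham, the share of all named genes called is not given for these alternatives. Their counts therefore have no background to be read against. Scaling by the median or not at all moved the median log2 ratio of all genes between TAC arrays from 0.03 to 0.12 and 0.30, and no scaling moved it to 0.16 for TAC against sham at 8 weeks and to 0.12 between shams. Over all scalings and corrections the Hbegf ratio at 8 weeks stayed between 1.38 and 1.58, the Nrg1 ratio between -0.92 and -0.56 at 2 weeks and between 0.50 and 0.89 at 8 weeks, and the Erbb4 ratio between -0.51 and -0.33 at 8 weeks. Ratios at signals below 0.25 of the percentile carry an SD between spots of 0.26 to 0.28, against 0.09 to 0.10 above it.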
